A study of Mus musculus with 4 samples.

Results

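Pleiotrophin (Ptn), midkine (Mdk) and the receptors Ptprz1, Alk, Ltk, Sdc3 and Lrp1 are described here as 7 genes of the 55414 in the count table, picked by name from the ligands and reported receptors of the family. They were named when differences between the Stra8 knockout and wild-type libraries were already known, so those differences are given for the 7 genes as a description, without p-values. The data are 4 bulk messenger RNA libraries of mouse brain, 2 from Stra8 knockout (KO) and 2 from wild-type (WT) mice. According to the series design, the animals of both genotypes carry a green fluorescent reporter under the Stra8 promoter, and reporter-positive cells were sorted from hippocampi to compare their transcriptomes with and without Stra8, a gene best known from germ cells, where retinoic acid induces it before meiosis. The tissue label of every sample is brain. No label or protocol used here gives the age or sex of the animals or how many stand behind a library. The p-values therefore measure only the spread between these libraries, which may be technical.

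Pleiotrophin and midkine form a small family of secreted, heparin-binding growth factors. They bind the sulfated sugar chains of proteoglycans, and both are abundant in the developing brain, where they support neurite outgrowth and survival. Their best described brain receptor is Ptprz1, a receptor tyrosine phosphatase of glia that carries chondroitin sulfate and loses phosphatase activity when pleiotrophin binds. Sdc3 is a heparan sulfate proteoglycan of neurons, Lrp1 is a large endocytic receptor, and Alk and Ltk are related receptor tyrosine kinases. Midkine was first found as a gene induced by retinoic acid.

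The libraries held between 71097417 and 82172740 reads and detected 28356 to 28801 genes. Stra8 itself had 7 and 4 reads in the KO libraries and 5 and 1 in the WT libraries. Its exact 95% binomial intervals ran from 0.034 to 0.176 and from 0.015 to 0.144 CPM (counts relative to the total of their library) in KO. In WT they ran from 0.020 to 0.145 and from 0.00031 to 0.068 CPM. Stra8 was thus barely detected in WT as well as in KO. Its loss could not be seen, and the genotype labels were taken as given. Hippocampal markers were present in every library, but so were markers of other regions. Cerebellar neuron markers summed to 476.8 to 479.4 CPM in KO and 691.1 to 697.1 CPM in WT. All 12 of 12 fell (quasi-likelihood test of edgeR, adjusted p under 0.05 after Benjamini and Hochberg), against 6.53% of all genes tested called in either direction. The cerebellar sums include Calb1, which is also in the dentate granule cell list used below, with means of 114.7 CPM in KO and 129.2 CPM in WT. Anterior pituitary markers summed to 29.4 to 29.7 CPM in KO and 62.1 to 62.2 CPM in WT. The Y-linked genes Ddx3y, Kdm5d, Eif2s3y and Uty were lower in KO and Xist was higher, although every library had reads of all 5. Ddx3y had 11.9 and 11.6 CPM in KO, against 27.9 and 28.1 CPM in WT. Xist had 441.1 and 419.8 CPM in KO, against 296.8 and 286.7 CPM in WT. A different share of male and female material in the genotypes cannot be told apart from a response of these genes, and neither was tested. In bulk samples fewer cells of a type and less RNA per cell cannot be told apart.

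All 7 genes passed the filter on low counts. Of the 7, 1 was called higher (Ptn) and 2 were called lower (Mdk and Lrp1) in KO, against 6.53% of all 21592 genes tested that were called in either direction, 3.35% higher and 3.19% lower. The share called depended on abundance. It was 25.7% among genes averaging at least 100 CPM, where Ptn, Ptprz1, Sdc3 and Lrp1 lie, and 5.07% among genes of 10 to 20 CPM, where Mdk, Alk and Ltk lie. The libraries of the genotypes did not overlap for 5 of the 7 genes, against 45.7% of all genes tested. These counts come from the comparison known when the genes were named, and nothing is read from them.

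**Figure D1:**
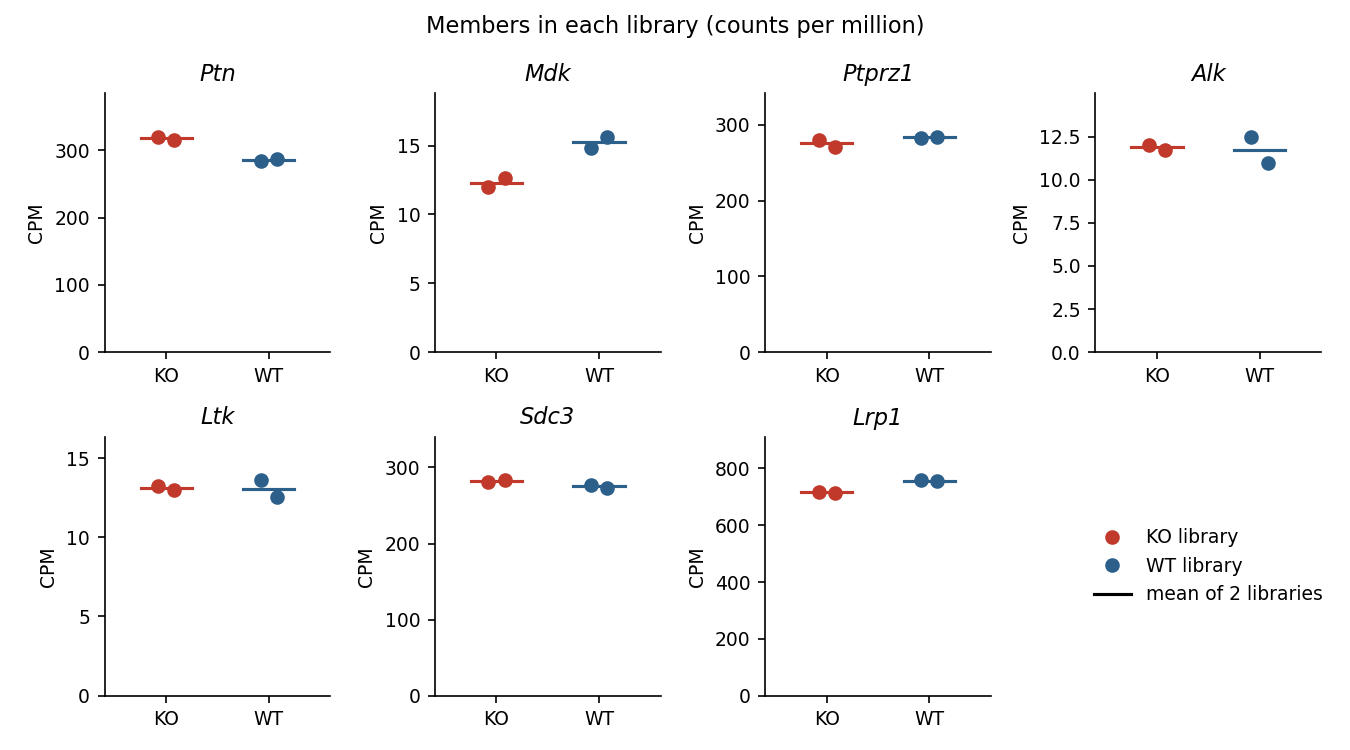
Level of each of the 7 genes in CPM (vertical axis, from 0) in the KO and WT libraries; each point is 1 library and each line the mean of 2 libraries. Ptn lay higher in KO (320.4 and 315.5 CPM) than in WT (283.97 and 287.1 CPM), Mdk and Lrp1 lay lower, and Alk and Ltk overlapped between genotypes.

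Of the ligands, Ptn (ENSMUSG00000029838, chromosome 6) was the abundant one. It had 320.4 and 315.5 CPM in the KO libraries, against 283.97 and 287.1 CPM in the WT libraries. Both KO libraries lay above both WT libraries, with a gap of 28.4 CPM between the groups and at most 4.87 CPM between libraries of 1 genotype. The mean was 317.98 ± 3.45 CPM in KO and 285.5 ± 2.22 CPM in WT (SD, n = 2 each), a fold of 1.11 and a log2 fold change of 0.16 (SE 0.017). Of the 10172 genes averaging at least 10 CPM, 93.3% had a smaller difference in either direction. Ptn was named with this comparison known, so that share is description and not a test. The counts behind Ptn, 22354 to 26230 reads per library, gave 95% binomial intervals of 315.4 to 323.1 CPM and 310.3 to 318.6 CPM in KO, and of 281.6 to 288.97 CPM and 283.8 to 291.2 CPM in WT. These intervals are on the scale of the unadjusted library totals and cover counting error only. Both mates of a pair appear to have been counted, so they are too narrow; with counts halved, the lowest KO bound for Ptn was 308.6 CPM and the highest WT bound 292.7 CPM.

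Mdk (ENSMUSG00000027239, chromosome 2), the other ligand, was scarce and lay on the opposite side. It had 11.97 and 12.6 CPM in the KO libraries, against 14.8 and 15.7 CPM in the WT libraries. The groups did not overlap, with a gap of 2.19 CPM and at most 0.84 CPM between libraries of 1 genotype. The mean was 12.3 ± 0.46 CPM in KO and 15.2 ± 0.60 CPM in WT (SD, n = 2 each), a fold of 0.81 and a log2 fold change of -0.31 (SE 0.068). This was the largest difference among the 7 genes, and 99.1% of the 10172 genes averaging at least 10 CPM differed by less. As for Ptn, that share is description and not a test. It rests on 894 to 980 reads in KO and 1195 to 1284 reads in WT. Counting error alone gave intervals of 11.2 to 12.7 CPM and 11.8 to 13.4 CPM in KO, and of 14.05 to 15.7 CPM and 14.8 to 16.6 CPM in WT. With counts halved, as for Ptn, the interval of KO library 2 reached up to 13.8 CPM and that of WT library 1 down to 13.7 CPM, so these 2 intervals overlapped.

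With the ligands on opposite sides, their proportion differed between genotypes. Per kilobase of annotated exon, the level of Ptn was 10.3 and 9.64 times that of Mdk in the KO libraries, against 7.39 and 7.07 times in the WT libraries. Both KO ratios lay above both WT ratios.

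Ptn lies on chromosome 6 near Stra8, with 7 protein-coding genes between them in the GRCm38 annotation. The 250 bases before its start are shown because it is the member next to the targeted locus; they are on the minus strand at chr6:36810180-36810429 of GRCm38.p6 (RefSeq). They were searched on both strands, with the 50 bases after the start, for CNCCTCAG, a motif reported for STRA8 binding in mouse testis, and for AGGTCA, the half-site that retinoic acid receptors bind. Capitals would mark a match, and the window held neither.
Ptn: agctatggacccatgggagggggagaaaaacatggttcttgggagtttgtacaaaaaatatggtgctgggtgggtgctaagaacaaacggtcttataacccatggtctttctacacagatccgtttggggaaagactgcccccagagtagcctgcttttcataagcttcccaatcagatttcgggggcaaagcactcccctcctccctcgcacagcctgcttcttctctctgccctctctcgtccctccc

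The receptor Ptprz1 (ENSMUSG00000068748) also lies on chromosome 6, with 80 protein-coding genes between it and Stra8. It had 280.0 and 270.6 CPM in the KO libraries, against 282.9 and 284.3 CPM in the WT libraries. The KO values were lower by less than they differed from each other: the gap between the groups was 2.91 CPM and the KO libraries were 9.40 CPM apart. The log2 fold change was -0.043 (SE 0.018), with means of 275.3 ± 6.64 CPM in KO and 283.6 ± 1.01 CPM in WT (SD, n = 2 each). Without KO library 1 the log2 fold change was -0.068 and without KO library 2 it was -0.018, so KO library 2 carried most of it.

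The co-receptors differed little and in opposite directions. Sdc3 (ENSMUSG00000025743, chromosome 4) had 280.3 and 283.3 CPM in the KO libraries, against 276.8 and 273.4 CPM in the WT libraries. The groups did not overlap, but the gap of 3.55 CPM was close to the 3.34 CPM between the WT libraries, and the log2 fold change was 0.035 (SE 0.017).

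Lrp1 (ENSMUSG00000040249, chromosome 10) had 717.7 and 714.4 CPM in the KO libraries, against 758.9 and 754.8 CPM in the WT libraries. Both KO libraries were below both WT libraries, by 37.0 CPM, while libraries of 1 genotype were at most 4.13 CPM apart. The mean was 716.1 ± 2.38 CPM in KO and 756.8 ± 2.92 CPM in WT (SD, n = 2 each), a log2 fold change of -0.080 (SE 0.013) and a difference of -5.39%. Of the 10172 genes averaging at least 10 CPM, 73.9% had a smaller difference in either direction. As for Ptn, that share is description and not a test. The values of Lrp1 rest on 50608 to 61905 reads per library.

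Of the 6 members with a promoter window in the RefSeq table, 1 held the STRA8 motif and 0 held the half-site. Mdk had no window there, so its promoter was not searched for either. Over all 32851 promoter windows of the same length, 7.94% held the STRA8 motif and 16.3% the half-site. The match was in Lrp1, starting at base 39 after its start. The 30 bases around it, on the minus strand at chr10:127621099-127621128 of GRCm38.p6, are shown because Lrp1 is also a member with a difference between genotypes; capitals mark the match, which reads as the reverse complement of the motif, and a match is a description of letters and not a binding site.
Lrp1: gagctccaggccagtgcaCTGAGGAGgcgg

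The receptor tyrosine kinases were scarce, and their genotypes overlapped. Alk (ENSMUSG00000055471, chromosome 17) had 11.98 and 11.7 CPM in the KO libraries, against 12.5 and 10.9 CPM in the WT libraries. Its log2 fold change was 0.018 (SE 0.076). Ltk (ENSMUSG00000027297, chromosome 2) had 13.2 and 12.96 CPM in the KO libraries, against 13.6 and 12.5 CPM in the WT libraries, a log2 fold change of 0.0030 (SE 0.070). For both genes the KO values lay between the WT values. These genes rest on 832 to 1098 reads per library, and their errors were close to that of Mdk.

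**Figure D2:**
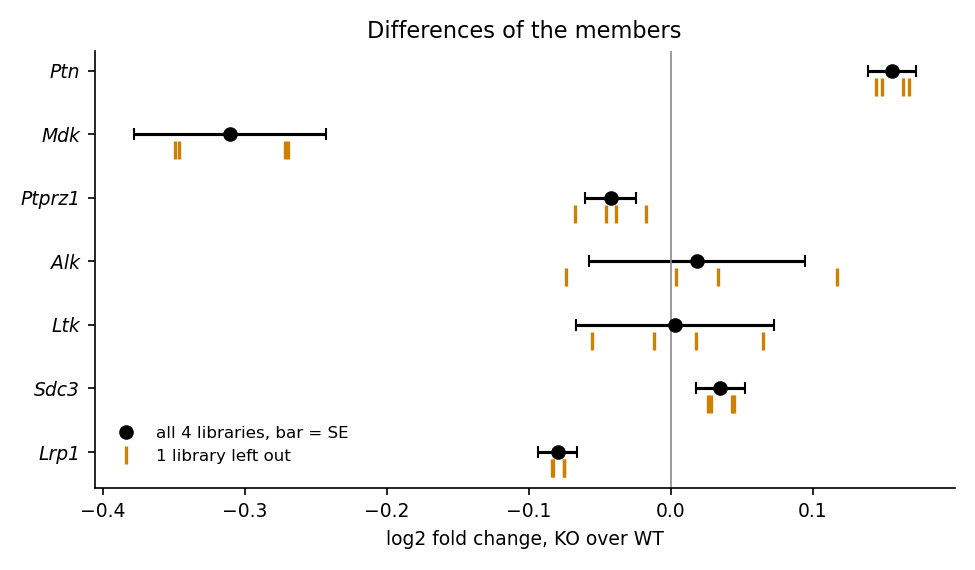
Log2 fold change, KO over WT (horizontal axis), of the 7 genes; points with bars are the fit of all 4 libraries with its SE, and short ticks the 4 fits with 1 library left out. Ptn stayed between 0.14 and 0.17, Mdk between -0.35 and -0.27 and Lrp1 between -0.084 and -0.075, while the ticks of Alk and Ltk fell on both sides of 0.

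Levels of different genes were compared per kilobase of exon, taking all annotated exons of a gene together. In KO the order was Ptn (92.6 ± 1.004 CPM per kilobase), Sdc3 (47.1 ± 0.36), Lrp1 (40.4 ± 0.13), Ptprz1 (19.3 ± 0.47), Mdk (9.29 ± 0.35), Ltk (3.64 ± 0.051) and Alk (1.53 ± 0.022). In WT the same order held, with Ptn at 83.2 ± 0.65 CPM per kilobase, Sdc3 at 45.9 ± 0.39, Lrp1 at 42.7 ± 0.16, Ptprz1 at 19.9 ± 0.071, Mdk at 11.5 ± 0.45, Ltk at 3.64 ± 0.21 and Alk at 1.51 ± 0.14 (SD, n = 2 each). In both genotypes each neighbouring pair in that order was apart by more than the spread between libraries. Exon lengths come from an annotation of another build than the counts, and they count exons of every isoform, so the steps between genes are approximate.

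**Figure D3:**
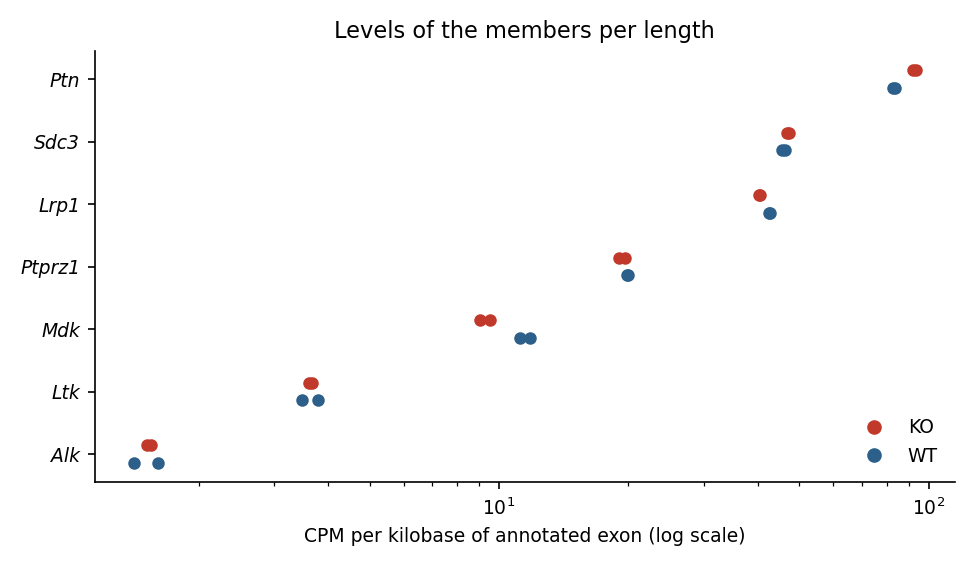
Level of the 7 genes in CPM per kilobase of annotated exon (horizontal log axis), with 1 point per library. The order from Ptn down to Alk was the same in all 4 libraries, from 82.7 to 93.3 CPM per kilobase for Ptn and from 1.41 to 1.61 for Alk.

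Antisense and other genes overlap Alk, Sdc3 and Lrp1 in the annotation. The 6 of them with counts used here had at most 32 reads per library, against 832 or more for these members. No source used here says whether strand was used in counting, so reads of the antisense genes cannot be told apart from those of Sdc3 and Lrp1.

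Because Ptn is close to the targeted gene, the protein-coding genes around it were read in their order on the chromosome, from 15 before Stra8 to 15 beyond Ptn. Of 37 such genes other than Stra8 and Ptn, 33 could be tested, and 1 rose and 2 fell. That is 9.09% called, against 6.53% of all genes tested and 9.84% of the 772 protein-coding genes of chromosome 6 tested. The gene that rose was D630045J12Rik (log2 fold change 0.086, SE 0.026, edgeR adjusted p = 0.0442), and those that fell were Ubn2 (-0.12, SE 0.032, edgeR adjusted p = 0.0176) and Luc7l2 (-0.066, SE 0.019, edgeR adjusted p = 0.0341). Just outside the threshold, and named after their values were seen, were Wdr91, the neighbour of Stra8, and Slc13a4, between Stra8 and Ptn. Wdr91 had 19.9 and 19.1 CPM in KO, against 21.6 and 22.8 CPM in WT (log2 fold change -0.18, SE 0.056, edgeR adjusted p = 0.0502), and was called lower under 6 of the 7 alternatives that use all libraries. Slc13a4 had 18.9 and 18.3 CPM in KO, against 16.3 CPM in both WT libraries (log2 fold change 0.19, SE 0.059, edgeR adjusted p = 0.0505), and was called higher under 5 of the 7. Neither Wdr91 nor Slc13a4 was called in any fit with 1 library left out. None of the 3 calls past the threshold held each time a library was left out. D630045J12Rik was called without KO library 2 and lost in the other cases (edgeR adjusted p up to 0.219), and it was also lost with limma-trend and with halved counts. Ubn2 was lost without KO library 2 and without WT library 1 (edgeR adjusted p up to 0.301), and Luc7l2 in every case (edgeR adjusted p of 0.0755 to 0.220).

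Between Stra8 and Ptn, 0 of 7 genes passed by edgeR, where 3 had an unadjusted p under 0.05, 2 of them higher and 1 lower in KO. DESeq2 also called 0 of the 7 and limma-trend called 1. Chrm2, the muscarinic M2 receptor and the direct neighbour of Ptn on the Stra8 side, had 27.7 and 26.5 CPM in KO, against 25.03 and 23.7 CPM in WT. Its log2 fold change, 0.16 (SE 0.051, edgeR adjusted p = 0.0676), had the size of that of Ptn with a larger error. Dgki, a diacylglycerol kinase and the neighbour on the far side, had 35.5 and 37.8 CPM in KO, against 35.2 and 34.0 CPM in WT (log2 fold change 0.081, SE 0.044, edgeR adjusted p = 0.358). Whether the difference in Ptn belongs to the locus or to the absence of Stra8 cannot be told apart in this design. The Y-linked genes, Xist and the cerebellar and pituitary marker lists also differed with genotype. Their part in the difference in Ptn cannot be told apart either and was not tested.

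**Figure D4:**
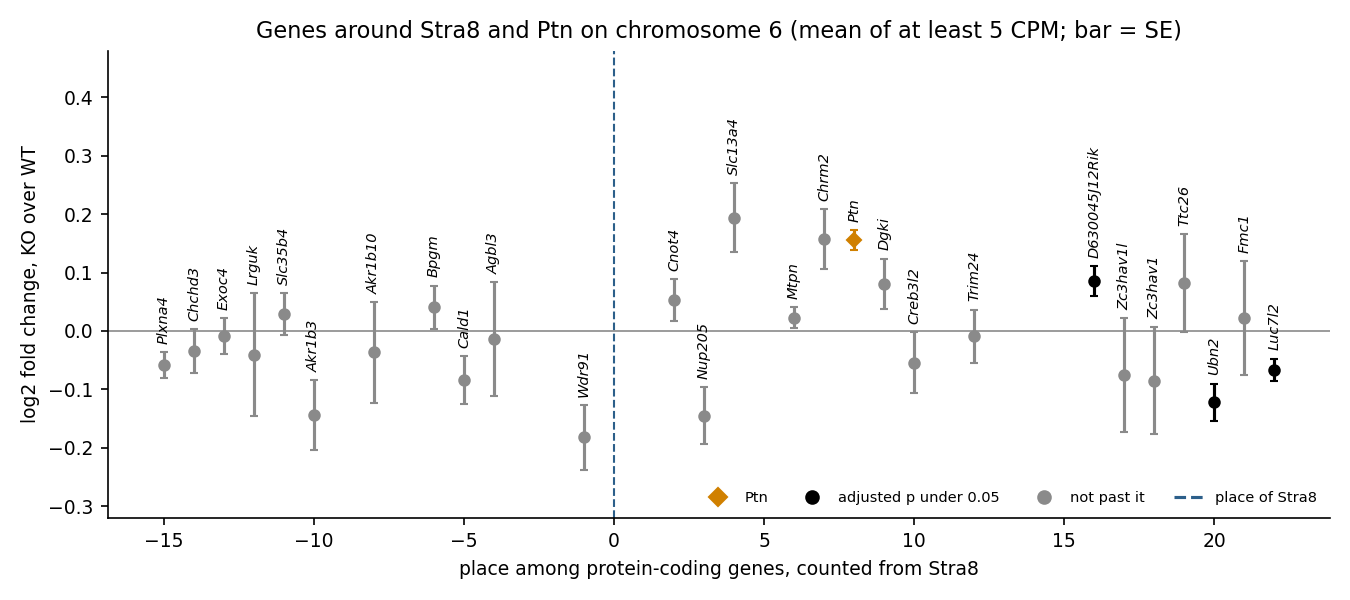
Log2 fold change, KO over WT, with its SE (vertical axis) of the 27 genes around Stra8 and Ptn with a mean of at least 5 CPM, by their place among protein-coding genes counted from Stra8 (horizontal axis). Ptn, at 0.16, stands beside Chrm2 at 0.16 and Dgki at 0.081, and genes on both sides of 0 lie between it and Stra8.

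The wider pathway was read from lists of 114 genes in all: alternative ALK ligands, other binding partners, ligands and substrates of Ptprz1, enzymes of sulfated sugar chains, ligands and adaptors of LRP1, and adaptors of ALK. Of 112 tested, 10 rose and 8 fell and 94 did not pass, or 16.1% called, against 6.53% of all genes tested and 25.7% of the genes averaging at least 100 CPM. The median log2 fold change was 0.0074, against -0.00038 over all genes tested. Of the 18 calls, 8 held with any 1 library left out: those of Cspg5, Ncan, Hs3st2, Sdc4, Notch2, Nrp1, Ust and A2m. The other 10 lost their call in at least 1 of those fits while keeping their direction.

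Among 19 other binding partners of the ligands, 2 rose and 3 fell, with a median log2 fold change of -0.0049. Cspg5 (neuroglycan C), a chondroitin sulfate proteoglycan, rose to 275.9 and 273.8 CPM in KO, against 248.3 and 248.9 CPM in WT (log2 fold change 0.14, SE 0.017, edgeR adjusted p = 2.63e-06). The syndecans, relatives of Sdc3, did not move together. Sdc4 fell to 64.5 and 65.2 CPM in KO, against 76.5 and 75.1 CPM in WT (log2 fold change -0.23, SE 0.030, edgeR adjusted p = 1.11e-05). Sdc2 rose by 0.13 (SE 0.040, edgeR adjusted p = 0.0421), a call that held only without WT library 1 when a library was left out (edgeR adjusted p up to 0.433 in the other cases). Notch2, a receptor reported to bind midkine, fell by 0.22 on the log2 scale, to 31.7 and 31.1 CPM in KO against 36.7 and 36.6 CPM in WT. Nrp1, a co-receptor of semaphorins and growth factors, fell by 0.19, to 36.4 and 36.0 CPM in KO against 41.5 and 41.2 CPM in WT. For Notch2 the edgeR adjusted p was 0.00104 and for Nrp1 it was 0.00241.

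Among 16 further ligands and substrates of Ptprz1, 3 rose and 1 fell, with a median of 0.021. Ncan (neurocan), a chondroitin sulfate proteoglycan of the extracellular matrix, rose to 396.2 and 396.6 CPM in KO, against 363.1 and 352.6 CPM in WT (log2 fold change 0.15, SE 0.017, edgeR adjusted p = 1.09e-06). Tnr (tenascin-R) rose by 0.063 and the adhesion molecule gene Nrcam by 0.051 on the log2 scale, with edgeR adjusted p of 0.0205 and 0.0486. The call of Tnr held only without KO library 2 (edgeR adjusted p up to 0.0887 in the other cases), and that of Nrcam was lost whichever library was left out (edgeR adjusted p of 0.0552 to 0.288). Afap1l2 fell by 0.24 (edgeR adjusted p = 0.0167), and without WT library 1 its edgeR adjusted p was 0.283. Cntn1, the neuronal contactin that binds Ptprz1, had 400.8 and 402.0 CPM in KO, against 401.6 and 394.9 CPM in WT, with edgeR adjusted p = 0.797.

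Of 39 enzymes of chondroitin and heparan sulfate tested, 2 rose and 2 fell, with a median of 0.020. Hs3st2, a heparan sulfate 3-O-sulfotransferase of neurons, rose to 45.7 and 43.8 CPM in KO, against 34.4 and 35.1 CPM in WT (log2 fold change 0.37, SE 0.040, edgeR adjusted p = 7.06e-07). This was the largest rise in the pathway lists. Ust, the uronyl 2-sulfotransferase, fell to 41.8 and 39.6 CPM in KO, against 46.7 and 47.5 CPM in WT (log2 fold change -0.21, SE 0.039, edgeR adjusted p = 0.000756). Xylt2, which starts the sugar chains, rose by 0.16 (edgeR adjusted p = 0.0252) and lost its call without KO library 1 and without WT library 1 (edgeR adjusted p up to 0.387). Sulf1, which removes sulfate groups outside the cell, fell by 0.19 (edgeR adjusted p = 0.0169), a call that held only without KO library 1 (edgeR adjusted p up to 0.122 in the other cases).

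Of 21 ligands, chaperones and adaptors of LRP1, 2 rose and 1 fell, with a median of 0.0023. A2m, the protease inhibitor that LRP1 clears, fell to 7.79 and 8.41 CPM in KO, against 10.3 and 10.97 CPM in WT (log2 fold change -0.39, SE 0.081, edgeR adjusted p = 0.00248). Calr (calreticulin) rose by 0.058 and the adaptor Apbb1 by 0.056 on the log2 scale, with edgeR adjusted p of 0.0126 and 0.0351. Calr lost its call without WT library 2 (edgeR adjusted p = 0.0804), and Apbb1 kept it only without KO library 1 (edgeR adjusted p up to 0.179 in the other cases). The chaperone Lrpap1 had 146.2 and 144.4 CPM in KO, against 139.4 and 141.1 CPM in WT, with edgeR adjusted p = 0.199. The 16 adaptors of ALK had a median of -0.028. Among them Shc3, a neuronal adaptor, rose by 0.12 and Irs2, an insulin receptor substrate, fell by 0.11. Their edgeR adjusted p was 0.0168 and 0.00600, and both calls were lost without KO library 1 and without WT library 1, where it reached 0.311 for Shc3 and 0.105 for Irs2. Alkal2, an established ligand of ALK and LTK, was at 1.78 and 2.00 CPM in KO and 2.21 and 1.94 CPM in WT (log2 fold change -0.13, SE 0.17, edgeR adjusted p = 0.781), and Alkal1 did not pass the filter on low counts.

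Some marker lists of the cell types that express these genes also differed between genotypes. Their calls stand beside 6.53% called of all genes tested and 25.7% of the genes averaging at least 100 CPM. Astrocytes transcribe Ptn and Ptprz1, and of 16 astrocyte markers 6 fell and 10 did not pass; their sum was 6829 to 6844 CPM in KO and 7009 to 7019 CPM in WT. Oligodendrocyte precursors are a known source of Ptprz1, and of 12 precursor markers 5 rose and 7 did not pass, with sums of 918.1 to 928.4 CPM in KO and 875.4 to 883.3 CPM in WT. Those that rose were Gpr17, Enpp6, Sox10, Pcdh15 and Tnr; the defining precursor markers Pdgfra (log2 fold change -0.044, SE 0.032) and Cspg4 (-0.034, SE 0.045) did not pass. Of 14 oligodendrocyte markers 10 rose and 4 did not pass, with sums of 11460 to 11482 CPM in KO and 10798 to 10883 CPM in WT. Choroid plexus and ependyma markers summed to 460.3 to 467.4 CPM in KO and 660.7 to 662.7 CPM in WT, with 5 of 12 lower. Most of that sum was Ttr, with means of 385.7 CPM in KO and 560.2 CPM in WT. Those called were the choroid plexus genes Ttr, Kl, Clic6, Slc4a5 and Aqp1, while the ependymal genes Foxj1, Ccdc153 and Tmem212 did not pass. Bergmann glia markers summed to 219.3 to 220.6 CPM in KO and 231.3 to 232.2 CPM in WT, with 3 of 5 lower and 1 higher. Dentate granule cell markers summed to 427.9 to 435.3 CPM in KO and 476.5 to 483.9 CPM in WT, with 6 of 10 lower. No marker of these lists was at 0 in all libraries. Ptn thus lay higher in KO where the summed astrocyte markers were lower. The mean sums of oligodendrocytes, their precursors, GABA interneurons, leptomeningeal fibroblasts and microglia were also higher in KO. Among them, 0 of 12 microglia markers and 0 of 8 leptomeningeal fibroblast markers were called, and of 12 GABA interneuron markers 3 rose and 1 fell. The leptomeningeal sums overlapped between genotypes, with 170.65 and 166.30 CPM in KO, against 166.32 and 165.14 CPM in WT. Mdk lay lower, as did the mean sums of all the other lists, astrocytes included. For 2 of these lists the lower sum rested on 1 gene. Of 10 pyramidal neuron markers 2 rose and 4 fell, and the sum rested on Camk2a, with means of 3076.8 CPM in KO and 3216.4 CPM in WT. Of 14 endothelial and mural markers 1 rose and 1 fell, and the sum rested on Slc2a1, with means of 105.6 CPM in KO and 133.8 CPM in WT. With 2 genotypes such pairings tie neither gene to a list. The part of these shifts in the values of Ptn, Mdk and Lrp1 was not tested.

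**Figure D5:**
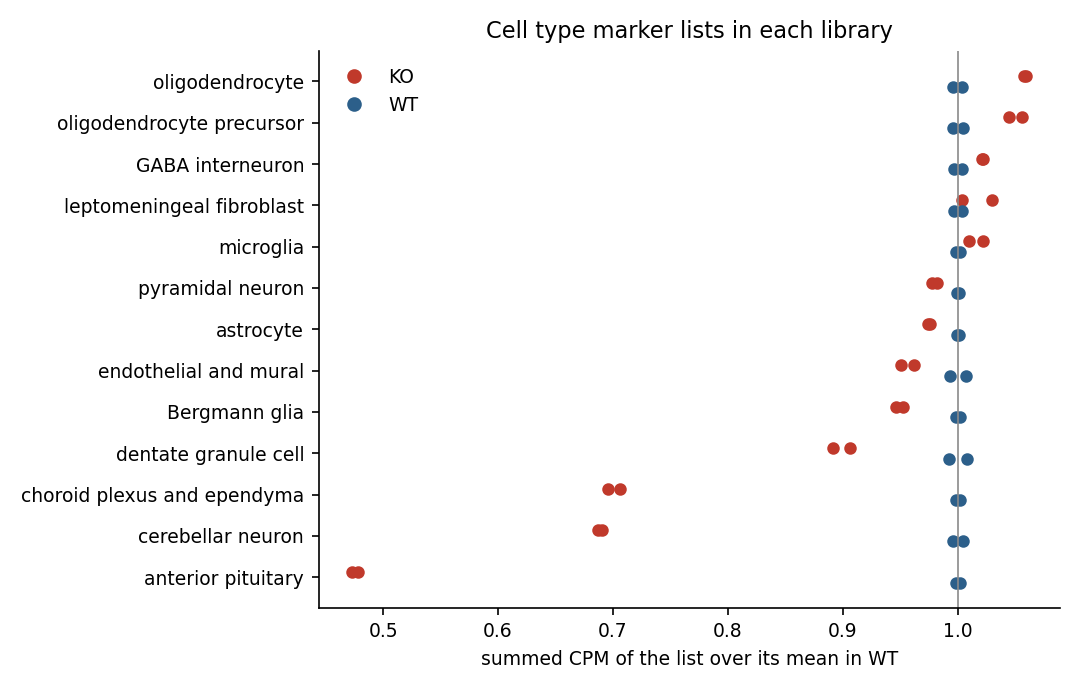
Summed CPM of 13 cell type marker lists in each library, divided by the mean of the list in WT (horizontal axis), with 1 point per library. The lists of anterior pituitary, cerebellar neurons and choroid plexus stood lowest in KO, at 0.48, 0.69 and 0.70 of WT, and oligodendrocytes highest, at 1.06.

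The genes most like Ptn, Mdk and Ptprz1 were taken as those with the smallest Euclidean distance between log2 CPM profiles, each centred over the 4 libraries, among 11451 genes averaging at least 5 CPM. Nearest to Ptn were Abcd2, Cpne5 and Avpi1, at distances of 0.0053, 0.0058 and 0.0066. Abcd2 had 49.0 and 48.4 CPM in KO, against 43.6 and 44.1 CPM in WT. Nearest to Mdk were Dusp5, Ddit4 and Thsd4, at distances of 0.024, 0.035 and 0.042, and Dusp5 had 20.5 and 21.3 CPM in KO, against 25.3 and 27.0 CPM in WT. Nearest to Ptprz1 were Emg1, Cep350 and Dhrs1, at distances of 0.0030, 0.0059 and 0.0059. With 4 libraries likeness is common: 1405 genes lay within a distance of 0.1 of Ptn, 64 of Mdk and 5856 of Ptprz1.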

How the data were processed

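The authors deposited raw counts of reads per gene, 1 table with 4 library columns and Ensembl mouse gene identifiers. Columns were matched to samples by title. The headers of both KO columns carry the suffix "-Huang", which the WT headers and the sample titles lack. Its meaning is not stated, and any difference in origin or handling behind it cannot be told apart from genotype. Per the labels' protocols, TRIzol was used to extract RNA, oligo dT beads to capture messenger RNA, and the libraries were strand-specific and read as pairs. The submitters' processing notes name GRCm39 as the build and list STAR 2.6.1c, DESeq2, featureCounts and FastQC, without their settings. Of counts from 1 to 20, 72.8% to 74.3% were even, so both mates of a pair appear to have been counted, and intervals from counts are too narrow.

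Symbols matched 52081 of 55414 identifiers. The fit used edgeR 4.0.16 in R 4.3.3: filterByExpr by genotype with a minimum count of 10, TMM scaling (factors 0.997 to 1.005), glmQLFit and glmQLFTest with genotype as the only term, and Benjamini-Hochberg adjustment over the 21592 genes tested. Calls are an adjusted p under 0.05. CPM use the TMM-scaled library sizes. The SE of a log2 fold change is its size over the square root of F. DESeq2 1.42.0 and limma 3.58.1 served as alternatives. The procedure was also run on simulated counts. The requirement set there concerned only genes with the largest simulated fold, which exceeds the differences of the members, so it gives no assurance at their size.

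Exon lengths and gene order come from GENCODE M21 (GRCm38), and promoter sequences from RefSeq (GRCm38.p6); neither is of the build of the counts, and coordinates are given for the sequences alone. The members, gene lists and settings were chosen with earlier results of these data known. Named genes are the members, Stra8, called pathway genes (up to 4 per direction and list with the smallest p), called genes around Stra8 and Ptn (up to 6), the direct neighbours of Ptn and the 3 genes most like Ptn, Mdk and Ptprz1; Cntn1, Lrpap1, Alkal1 and Alkal2 were named by choice, for their roles. Called marker genes are given by their lists. The exceptions are Calb1, Camk2a, Slc2a1 and markers of oligodendrocyte precursors and of choroid plexus and ependyma. Like Wdr91 and Slc13a4, these were named after their values were seen. Alternatives were RLE size factors, no filter, DESeq2, limma-trend (prior count 2), a dispersion of 0, halved counts, each library left out, and the replicate number as a block.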

Additional observations from a re-analysis of the deposited data

How the results depend on the processing

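The members called, Ptn higher and Mdk and Lrp1 lower, were the same under all 11 alternatives (RLE size factors, no filter, DESeq2, limma-trend, dispersion 0, halved counts, replicate block, and each of 4 libraries left out), except that Ptprz1 was also called lower without KO library 1, which made 3 called lower. All these fits draw on the same 4 libraries, and the members were named with this comparison known. Their agreement therefore describes the processing and is not support for the calls. With 1 library left out, the lone library of its genotype is assumed to vary like the others. In those fits the log2 fold change ran from 0.14 to 0.17 for Ptn, from -0.35 to -0.27 for Mdk, from -0.084 to -0.075 for Lrp1, from -0.068 to -0.018 for Ptprz1 and from 0.026 to 0.044 for Sdc3. It changed sign for Alk, with -0.074 if WT library 2 was left out and 0.12 if WT library 1 was, and for Ltk, from -0.056 to 0.065. Over all genes 723 were called higher and 688 lower, and 558 to 660 and 506 to 618 with 1 library left out. Of the genes around Stra8 and Ptn, 0 to 2 were called higher and 0 to 2 lower with 1 library left out. The count called higher was 2 with RLE size factors, 2 with dispersion 0 and 3 with the replicate block, against 1, and the count called lower was 3 under 6 of the alternatives that use all libraries, against 2; the cause was not tested. The pathway lists had 6 to 7 called higher and 5 to 7 called lower with 1 library left out, against 10 and 8. Same-numbered libraries share only a number: the correlation of their deviations was 0.016 across genes, and the block changed the call of no member. With 1 to 7 reads per library, Stra8 was barely detected in WT as well as in KO. Neither its loss nor the sorting on its promoter can be read from its counts.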
